A study of Mus musculus with 15 samples.

Results

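The mitochondrial ribosomal protein genes are nuclear genes whose products are made in the cytosol, imported into mitochondria and built into the mitoribosome. The mitoribosome translates the few mRNAs of the mitochondrial genome, all of which encode subunits of the oxidative phosphorylation (OXPHOS) complexes, and the liver holds many mitochondria. H3K4me3, a histone H3 tail carrying 3 methyl groups on its lysine 4, marks the nucleosomes around transcription start sites (TSSs) of active genes, and genes used in every cell usually carry it. Which genes belong to the group was decided by name alone, as the protein-coding genes of GENCODE M21 (mm10) with the symbols Mrpl or Mrps followed by a digit. There were 78 of them among 21755 protein-coding genes on chromosomes 1 to 19 and X, 49 named for the large subunit (Mrpl) and 29 for the small subunit (Mrps). The list of members with a counterpart in the bacterial ribosome held 46 of the 78.

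H3K4me3 was measured by PAT-ChIP-seq, a form of ChIP-seq for tissue fixed in formalin and embedded in paraffin, in the livers of 15 wild-type C57BL/6 females (C57BL/6J in the study's methods) with 1 library per mouse and 3 mice per diet. The 5 diets were standard diet ad libitum (SD), a calorie-restricted daily amount of that formula (CR), high-fat diet ad libitum (HF), and the standard formula with its maize replaced by powder of yellow corn without anthocyanins (YD) or of purple corn rich in anthocyanins (RD), both ad libitum. All mice were put on their diet at 3 months of age and fed for 10 months, and the labels give an age of 12 months. Each deposited list holds the enriched regions (peaks, named islands by SICER2) of 1 liver, and a gene was counted as having a peak when 1 lay within 1 kb of any of its TSSs. In such bulk livers, fewer cells with the mark at a gene and less of the mark per cell cannot be told apart.

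The reads recovered behind the lists ranged from 5589269 to 15449854, and YD 1, the library with the most reads, held the shortest list with 7825 peaks. The lists of YD held 7825 to 10906 peaks, those of SD 10501 to 23107, and those of RD 12658 to 32131. Peaks were found at 9 to 14 of 14 hepatocyte marker genes in every library. Markers of other liver cells were rarely marked. The 5 Kupffer cell markers had no peak outside HF, where HF 1 held 3 and HF 3 held 1. Of the 5 endothelial markers, 2 to 5 had a peak in HF, 0 to 3 in SD, 1 to 2 in CR, 0 to 1 in RD and 0 in YD, and of the 5 stellate cell markers 1 to 3 had a peak in HF, 0 to 2 in SD, 0 to 1 in CR and none in YD or RD. At most 2 of 5 cholangiocyte, 1 of 6 lymphocyte and 1 of 7 neuron or muscle markers had a peak in any library.

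Most mitochondrial ribosomal protein genes carried a peak in SD, CR and HF, and fewer did in both corn diets. In SD, 75, 71 and 68 of the 78 genes had a peak, against 43.1%, 43.0% and 32.7% of all protein-coding genes in the same libraries. In CR the counts were 67, 76 and 76, with 35.5%, 46.5% and 48.2% of protein-coding genes marked. In HF they were 78, 76 and 77, and HF 1 was the library in which every member had a peak, with 54.6%, 47.6% and 51.5% of protein-coding genes marked. In YD they were 51, 52 and 33, with 24.3%, 26.5% and 17.5% of protein-coding genes marked, and in RD 55, 62 and 51, with 31.2%, 34.7% and 27.8%. The highest count in a corn diet, 62 in RD 2, lay under the lowest of the other diets, 67 in CR 1, so the 6 YD and RD libraries did not overlap the other 9. The share of all protein-coding genes marked was also lower in these libraries, of which only RD 2 lay among the values of the other diets.

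As means, 71.3 ± 3.51 members had a peak in SD (mean ± standard deviation over 3 mice, as for each diet), 73 ± 5.20 in CR and 77 ± 1 in HF, while YD mice had 45.3 ± 10.7 and RD mice 56 ± 5.57. CR and HF exceeded SD by 1.67 and 5.67 genes, less than the pooled spread of 6.09 genes between mice of a diet. YD was lower than SD by a difference of -26.0 genes and RD by -15.3. RD exceeded YD by 10.7 genes, which fell to 4.50 without YD 3, the library with the fewest members, and turned to -3.33 when only the 7825 highest-scoring peaks of each list were kept. With that equal number of peaks the counts were still lower in the corn diets than in the others, with a mean difference of -21.8 genes. Protein-coding genes at large were also lost at that setting. Of the genes then marked in every SD mouse, 73.0% of members and 71.7% of protein-coding genes kept a peak in the corn libraries.

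**Figure D1:**
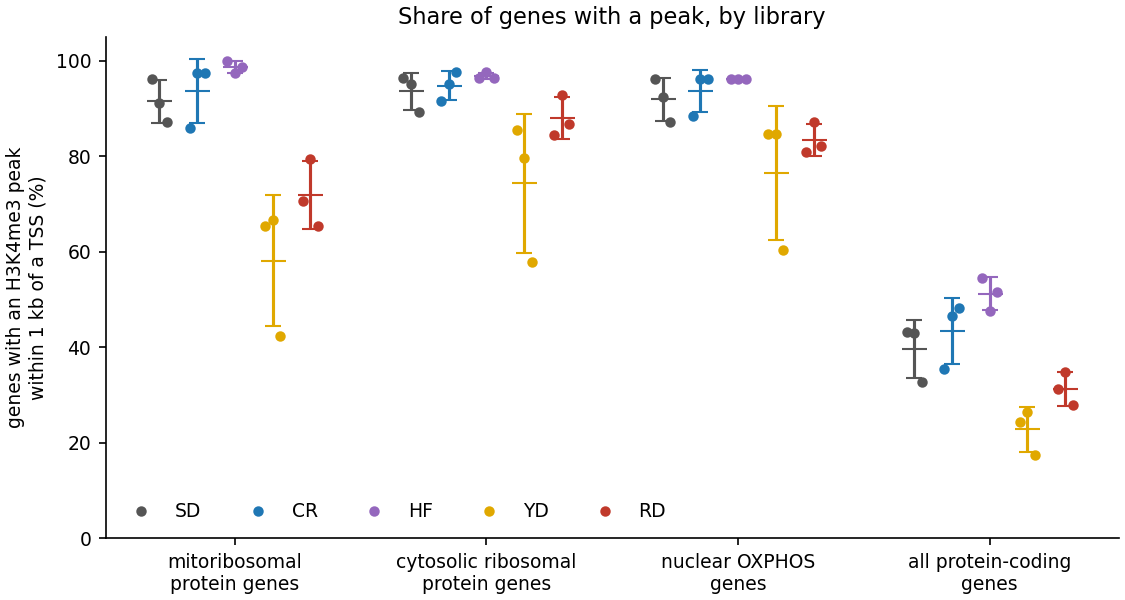
Percent of genes with an H3K4me3 peak within 1 kb of a TSS (vertical axis) in each of the 15 libraries, for the 78 mitochondrial ribosomal protein genes, 83 cytosolic ribosomal protein genes, 78 nuclear OXPHOS genes and all 21755 protein-coding genes. Points are mice, horizontal ticks the mean of 3 mice and bars the SD; the mitochondrial ribosomal protein genes stood at 58.1% in YD and 71.8% in RD and above 91% in the mean of each other diet.

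The members were compared with the gene groups most like them, the cytosolic ribosomal protein genes, which build the ribosome of the cytosol, and the nuclear OXPHOS genes, which encode respiratory chain and ATP synthase subunits. In SD, CR and HF, where most genes of all 3 groups were marked, the shares were 91.5%, 93.6% and 98.7% of members, 93.6%, 94.8% and 96.8% of cytosolic ribosomal protein genes, and 91.9%, 93.6% and 96.2% of nuclear OXPHOS genes. In YD the shares were 58.1% of members, 74.3% of cytosolic ribosomal protein genes and 76.5% of nuclear OXPHOS genes, and in RD they were 71.8%, 88.0% and 83.3%. The member share minus that of either group was lower in the corn diets than in the other diets, by -15.7 percentage points for both, against a spread between mice of a diet of 3.41 and 2.41 points. With an equal number of peaks per list the members already stood under both groups in SD, CR and HF, with mean differences of -10.1 and -9.26 points, and the differences between the corn and the other diets were -8.98 and -8.90 points. The pairs of diets against SD share the SD mice.

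Presence was also counted over genes that every SD mouse had marked. Of the 65 members with a peak in all 3 SD mice, 47, 47 and 30 had one in the YD mice and 51, 54 and 48 in the RD mice. All 65 had one in each HF mouse and in CR 2 and CR 3, and 57 did in CR 1. Over the 6 corn libraries a mean of 71.0% of these members kept a peak, against 73.3% of the 6341 protein-coding genes with a peak in all 3 SD mice, 87.2% of 74 such cytosolic ribosomal protein genes and 85.6% of 66 such nuclear OXPHOS genes. The difference between the members and protein-coding genes at large was -2.30 points and turned to 4.88 points without SD 3 and 0.036 without SD 2, and to 1.27 with an equal number of peaks per list, and that between the members and cytosolic ribosomal protein genes was -16.1 points, and -8.04 with an equal number of peaks. Against nuclear OXPHOS genes it was -14.6 points, and -7.44 with an equal number of peaks.

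Some members marked in every SD mouse had no peak in any mouse of a corn diet. Lost and gained refer to called peaks, and a missing peak does not show that the mark was absent. Of the 65, 10 (15.4%) had no peak in any YD mouse, beside 12.0% of the protein-coding genes marked in all SD mice, and none of the 74 cytosolic ribosomal protein genes or 66 nuclear OXPHOS genes. The 10 were Mrpl11, Mrpl13, Mrpl19, Mrpl34, Mrpl35, Mrpl38, Mrpl58, Mrps2, Mrps17 and Mrps24. Mrpl58 is a peptidyl-tRNA hydrolase that became a mitoribosome subunit, and Mrpl11 belongs to the stalk base where translation factors bind. In RD 4 members (6.15%) were lost in all 3 mice, beside 3.61% of protein-coding genes, 1 of 66 nuclear OXPHOS genes and none of 74 cytosolic ribosomal protein genes, and these were Mrpl16, Mrpl35, Mrps25 and Mrps30. The YD share lay near that of protein-coding genes, and the RD share rests on 4 members. The next rule was a peak in at least 2 SD mice and none of the other diet. By it 10 members were lost in YD (12.8%, beside 9.46% of all 21755 protein-coding genes). In RD 5 were lost (6.41%, beside 3.92%), with Mrps36 as the fifth. No member was lost by that rule in CR (0.336% of protein-coding genes) or HF (0.0735%), or gained in YD (0.0368%) or RD (0.221%). Counted as 3 of 3 mice against none, the shares of protein-coding genes lost were 3.50% for YD and 1.05% for RD, beside 0.0184% for CR and 0.00919% for HF with no member, and those gained were 0.00460% for YD and 0.0276% for RD with no member. The counts by the rule of at least 2 SD mice rested on few mice. They rose to 17 and 19 in YD without YD 1 or YD 2 and to 9 and 11 in RD without RD 1 or RD 2. The share of protein-coding genes lost was not counted with a library left out, so these rises cannot be set against it.

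Mrpl35, which encodes a large subunit protein with a bacterial counterpart (chr6:71812997-71826969, minus strand), was the member lost in both corn diets. Its peak stood at score percentiles of 77.5, 64.95 and 30.2 in SD, the percentile being the rank of the peak's score within its own list with 100 as the highest. It had none in CR 1, stood at 56.2 and 75.8 in CR 2 and CR 3, and at 69.4, 78.8 and 48.5 in HF. None of the 6 YD and RD mice had a peak there, so presence was 0 of 6 against 8 of 9.

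Mrpl13, a large subunit protein that is also conserved in bacteria (chr15:55534094-55557748, minus strand), was the lost member with the highest rank in SD. Its percentiles were 83.6, 74.4 and 69.9 in SD, 65.4 to 83.2 in CR, 63.4 to 77.04 in HF and 54.6, 67.6 and 88.4 in RD, and no YD mouse had a peak. Mrps2, a small subunit protein (chr2:28468066-28471178), also had a peak in every SD, HF and RD mouse and in no YD mouse, but none in CR 1. Its percentiles were 54.2, 73.5 and 61.6 in SD, and its RD peaks lay at 50.2, 4.88 and 3.98. Mrpl13 and Mrps2 were the members gained in RD over YD in all 3 mice (1.09% of protein-coding genes were), and none was lost by that rule (0.0276%). With an equal number of peaks per list Mrpl13 had a peak in 2 RD mice and Mrps2 in 1, and neither had one in YD. With at least 2 RD mice and no YD mouse, 5 were gained (3.81% of protein-coding genes were), adding Mrpl38, Mrps17 and Mrps24, and 1 was lost (0.244%), Mrps30.

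Mrpl11 (chr19:4962147-4966999), a member with percentiles of 42.1, 34.9 and 23.4 in SD, had a peak in all 9 libraries of SD, CR and HF and in 1 of 6 corn libraries, RD 1, at 3.65. Mrpl16 and Mrps25 likewise had a peak in 9 of 9 libraries and in 1 of 6, YD 2 in each case, at 55.2 and 40.7. With an equal number of peaks per list these counts were lower, at 5 of 9 and 0 of 6 for Mrpl11, 3 of 9 and 1 of 6 for Mrpl16 and 7 of 9 and 1 of 6 for Mrps25, while Mrpl35 had 7 of 9 and 0 of 6. Presence in the 6 corn libraries against the other 9 was tested per gene by Fisher's exact test, two-sided, a comparison chosen after the counts were seen. No gene passed after Benjamini-Hochberg adjustment over all 21755 genes, 0% in either direction. A peak in 0 of 6 against 9 of 9 libraries gives the smallest p possible here, 0.0002 by Fisher's exact test. Too few genes had that p for it to pass, and its adjusted p was 0.0869 by the exact test. Even the most extreme split did not pass, so this outcome says nothing about the members. Before adjustment, 22 of 78 members had p below 0.05 in this exact test, each with fewer corn libraries, beside 2963 protein-coding genes with fewer and 1 with more, 6 of 83 cytosolic ribosomal protein genes and 5 of 78 nuclear OXPHOS genes. Many protein-coding genes have too few peaks to reach such a p, and among genes with a peak in at least 8 libraries it was 19 of 73 members (26.0%) and 1996 of 8722 protein-coding genes (22.9%), so the members lay near the background. The smallest exact p among members was 0.0014 for Mrpl35 (adjusted p = 0.107), followed by 0.0020 for Mrpl11, Mrpl16 and Mrps25 (adjusted p = 0.107 by the exact test). Adjusted over the 10985 genes with a peak in 1 to 14 libraries, the exact test called 50 genes and no member. There 0 of 6 against 9 of 9 had an adjusted p of 0.0439 by Fisher's exact test. No member had that split, and the adjusted p of Mrpl35 was 0.0541.

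**Figure D2:**
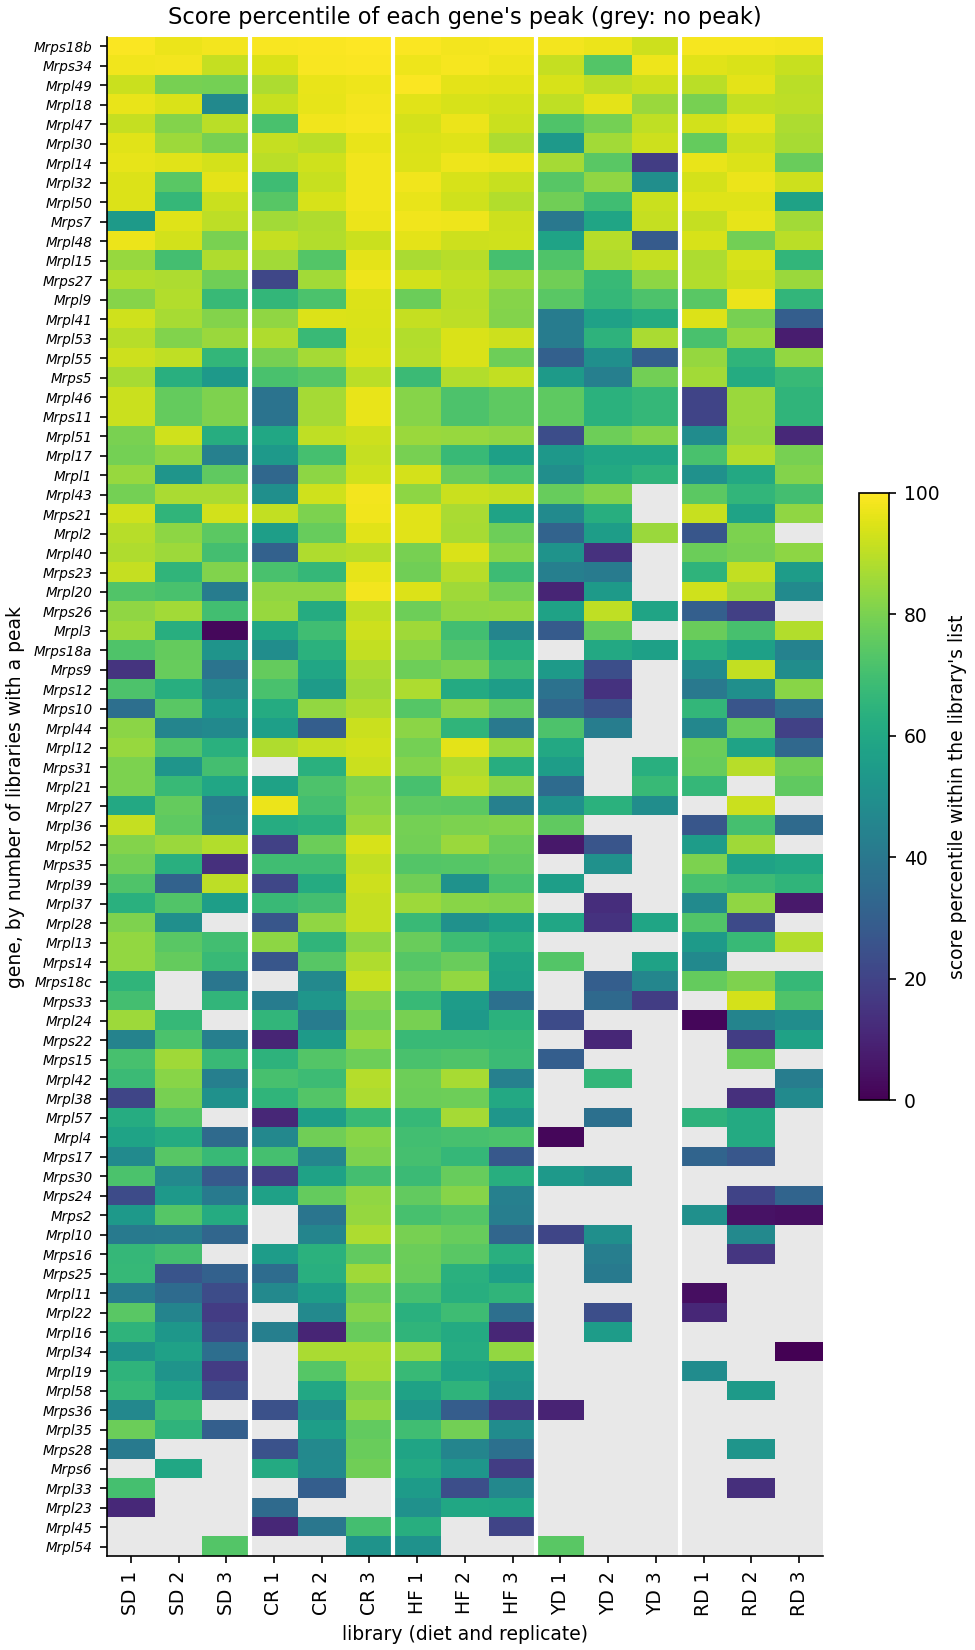
Score percentile of the peak at each of the 78 genes (rows, ordered by the number of libraries with a peak and then by mean percentile) in each library (columns, by diet and replicate). Grey cells have no peak; 23 genes at the top had a peak in all 15 libraries, and the grey cells of the others lie mostly in the YD and RD columns.

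The members differed in how widely they were marked. All had a peak in at least 1 library, whereas 40.0% of protein-coding genes had none. A peak in all 15 libraries was found at 23 members (29.5%), beside 9.46% of protein-coding genes, 42.2% of cytosolic ribosomal protein genes and 44.9% of nuclear OXPHOS genes. A further 29 members had a peak in 12 to 14 libraries, 21 in 8 to 11 and 5 in 7 or fewer. The subunit named in the symbol made little difference, with 59.2% of Mrpl and 56.3% of Mrps genes marked in YD and 72.1% and 71.3% in RD. Members with a bacterial counterpart stood at 56.5% in YD and 71.7% in RD and those without at 60.4% and 71.9%.

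The 5 rarely marked members were Mrpl23, Mrpl33, Mrpl45, Mrpl54 and Mrps6. Mrpl45, a large subunit protein near the exit of the nascent chain, had no peak in SD, peaks at percentiles of 11.03, 39.8 and 70.0 in CR and at 62.6 and 20.4 in HF 1 and HF 3, and none in YD or RD. It was the member gained over SD in all 3 CR mice (0.313% of protein-coding genes, and 1.79% with at least 2 mice) and in 2 HF mice (4.69% with at least 2 mice, and 1.82% with no member in all 3). Mrpl23 had peaks in all 3 HF mice, at 50.6, 59.7 and 58.9, and in SD 1 and CR 1. Mrps6 had none in the corn libraries, 1 in SD and 3 each in CR and HF. Mrpl33 had 1 peak in the corn libraries, in RD 2, and Mrpl54 had 1, in YD 1. The 4 peaks of Mrpl54 became 13 when a TSS within 3 kb of a peak was accepted. With an equal number of peaks per list Mrpl45 had a peak in 0 libraries, so its gain in CR and HF was not seen there, and Mrpl23 had 1, Mrpl33 2, Mrpl54 2 and Mrps6 4.

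The rank of a gene in SD mice went with its presence in the corn diets. Over the 65 members marked in all SD mice, the median of the mean SD percentile was 49.9 for the 10 with a peak in no YD mouse, 58.7 for the 12 with 1, 66.8 for the 17 with 2 and 83.1 for the 26 with 3. For RD the medians were 47.8, 49.6, 65.9 and 79.4 for 4, 11, 8 and 42 members. The ranges overlapped, from 33.5 to 76.0 for members lost in every YD mouse and from 59.6 to 98.2 for those kept in every YD mouse.

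**Figure D3:**
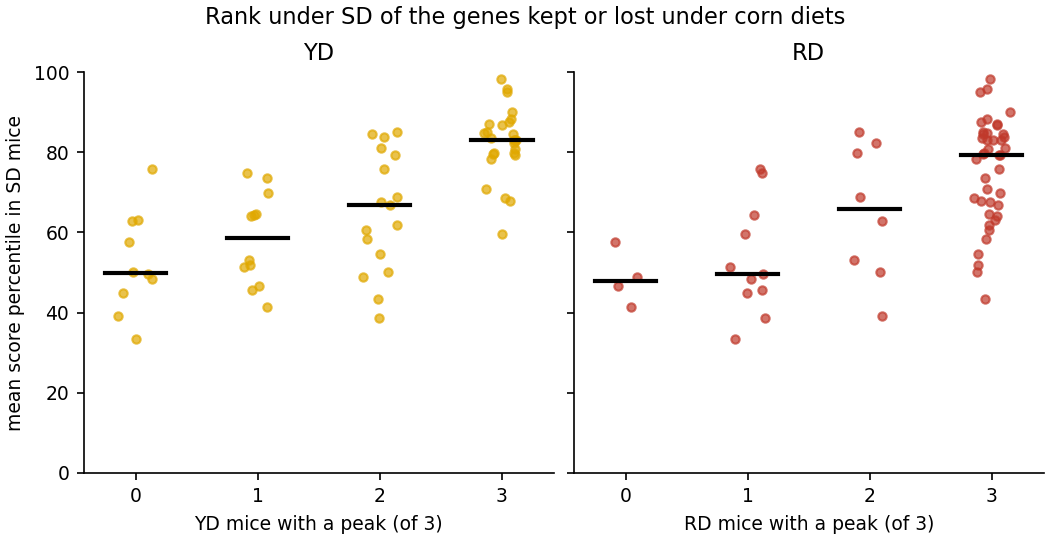
Mean score percentile in the 3 SD mice (vertical axis) of the 65 members with a peak in every SD mouse, by the number of YD mice (left) or RD mice (right) with a peak. Points are genes and black lines medians; the medians rise from 49.9 to 83.1 in YD and from 47.8 to 79.4 in RD.

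Many members share their promoter with a neighbour. A coding gene on the other strand began at or within 1 kb upstream of 26 members (33.3%), beside 2011 of 21755 protein-coding genes (9.24%). Such head-to-head partners included Tcp1 (Mrpl18), a chaperonin subunit, Twnk (Mrpl43), the mitochondrial DNA helicase, Ndufs6 (Mrpl36), a complex I subunit, Sars2 (Mrps12), the mitochondrial seryl-tRNA synthetase, and Hira (Mrpl40), a histone chaperone. Mrpl46 and Mrps11 are each other's partner, 30 bp apart, and shared 1 peak in all 15 libraries, so both held the same widths and percentiles.

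Members with a partner kept their peaks more often in the corn diets. Of the 26, 23, 24 and 18 had a peak in the YD mice and 23, 25 and 21 in the RD mice, and of the 52 without a partner 28, 28 and 15 in YD and 32, 37 and 30 in RD. As means this was 83.3% ± 12.4 against 45.5% ± 14.4 in YD and 88.5% ± 7.69 against 63.5% ± 6.93 in RD (SD, n = 3 mice). In SD the shares were 94.9% ± 2.22 and 89.7% ± 6.75, and in HF 97.4% ± 2.22 and 99.4% ± 1.11. Over the 6 corn libraries the gap was 31.4 points, with a range of 29.6 to 33.1 when each library was left out and 29.8 to 33.0 under other settings for peaks and TSSs, and over the other 9 libraries it was 1.71 points, rising to 11.3 with an equal number of peaks per list. This comparison was chosen after the data were seen and was not tested. In SD 1, 34 of 75 marked members shared their peak with another coding gene, while 25 of the 26 with a partner had a peak. Some members without such a partner therefore shared a peak too. Mrpl54, the member with peaks in the fewest libraries, 4, has a partner, Apba3, 26 bp away.

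Protein-coding genes at large differed by a partner too, with 58.5% marked in YD against 19.1% without one and 83.4% against 35.2% in SD. A peak in all 15 libraries was found at 15 of the 26 members with a partner (57.7%) and 8 of the 52 without (15.4%), beside 31.7% and 7.20% of protein-coding genes. The members with a partner also ranked higher in SD. Among the 65 marked in all SD mice the median SD percentile was 83.1 for 23 with and 63.8 for 42 without a partner. Within the members at or above the median rank of 69.9, a mean of 95.4% of corn libraries had a peak for 18 with and 81.1% for 15 without a partner, and below it 73.3% for 5 and 48.8% for 27.

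**Figure D4:**
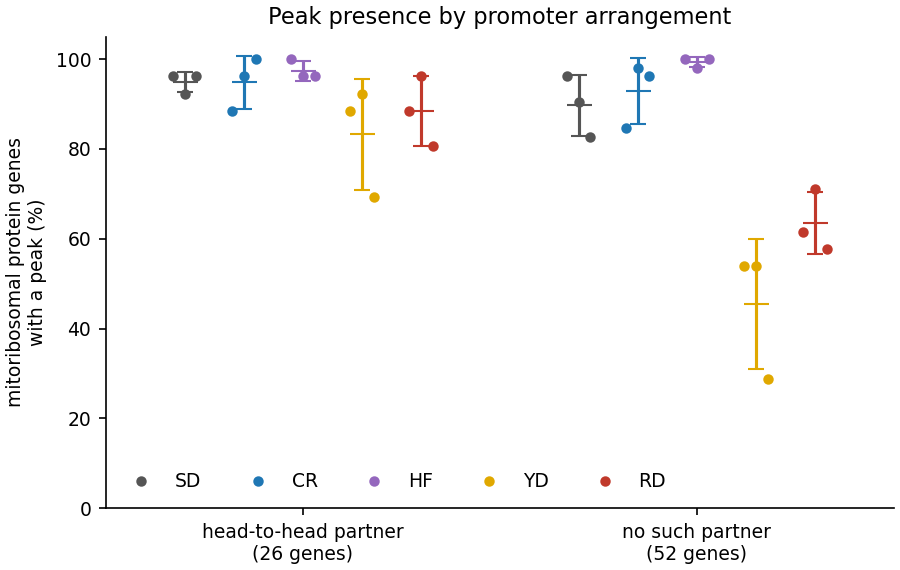
Percent of mitochondrial ribosomal protein genes with a peak (vertical axis) in each library, for the 26 with a coding gene starting on the other strand within 1 kb upstream and the 52 without. Points are mice, ticks the mean and bars the SD of 3 mice per diet; in YD the means were 83.3% and 45.5%.

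Upstream bases are shown for 4 members. For Mrpl49 and Mrpl32 they are the short gap to a head-to-head gene, and for the rarely marked Mrpl23 and Mrpl33, which have no such partner, upstream sequence. They come from the RefSeq promoter table (GRCm38.p6, 250 bases before each start), which held 69 of the 78 members, and only the stretch outside every annotated exon is printed. Mrpl49, a large subunit protein with a peak in all 15 libraries, lies 59 bp from Fau, whose product joins a ubiquitin-like protein to a protein of the cytosolic small subunit. Mrpl32, also marked in all 15, lies 75 bp from Psma2, a proteasome subunit. Mrpl23 had a peak in 5 libraries and Mrpl33 in 6. Sequences read 5′ to 3′ on the strand of the gene, and capitals mark matches to the motifs listed afterwards.
Mrpl49 (chr19:6057786-6057843, minus strand): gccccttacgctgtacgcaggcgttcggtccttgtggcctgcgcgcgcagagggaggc
Mrpl32 (chr13:14613166-14613239, minus strand): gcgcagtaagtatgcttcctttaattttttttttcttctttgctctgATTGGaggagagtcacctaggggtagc
Mrpl23 (chr7:142532831-142533011, plus strand): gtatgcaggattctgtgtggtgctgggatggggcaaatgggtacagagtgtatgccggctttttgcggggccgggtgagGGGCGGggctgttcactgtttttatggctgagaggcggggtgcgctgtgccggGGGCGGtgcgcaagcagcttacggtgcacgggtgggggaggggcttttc
Mrpl33 (chr5:31613701-31613938, plus strand): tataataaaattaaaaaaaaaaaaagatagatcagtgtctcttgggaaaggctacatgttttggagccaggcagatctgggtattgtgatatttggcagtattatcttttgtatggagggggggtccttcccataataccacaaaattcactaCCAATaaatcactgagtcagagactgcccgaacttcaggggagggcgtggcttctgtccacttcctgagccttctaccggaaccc

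The stretch between Mrpl49 and Fau held 7 CpG in 58 bases and none of the 9 motifs searched, and that between Mrpl32 and Psma2 1 CpG in 74 bases and a CCAAT match on the other strand. The Mrpl23 stretch held 11 CpG in 181 bases and 2 matches to GGGCGG, and the Mrpl33 stretch 3 CpG in 238 bases and 1 CCAAT match.

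Over the whole 300 bases of the table, 250 before and 50 after the start, member promoters held a median of 21 CpG (quartiles 15 and 26) with a GC content of 58.0%, and 16416 protein-coding promoters a median of 14 CpG (quartiles 4 and 25) with 57.0%. The 21 promoters of members marked in all 15 libraries held a median of 23 CpG and the other 48 a median of 18. Motifs were searched on both strands as exact letters. AAGATGGC, the core of sites for the factor YY1, was in 12 member promoters (17.4%) and 3.25% of protein-coding promoters. CCGGAAGT, read by ETS factors, was in 12 (17.4%) and 5.60%, and GCATGCGC, the core of sites for NRF1, a factor known for nuclear genes of mitochondrial proteins, in 8 (11.6%) and 3.795%. ACTACAA of the ZNF143 motif was in 5 (7.25%) and 3.90%. GGGCGG, read by Sp factors, was in 33 (47.8%) and 48.7%, CCAAT in 27 (39.1%) and 38.7%, TATAAA in 4 (5.80%) and 12.9%, TGACGTCA, the cAMP response element, in 2 (2.90%) and 2.42%, and TCTCGCGA, read by BANP, in 1 (1.45%) and 1.56%. Of the members marked in all 15 libraries, 4 of 21 held GCATGCGC and 5 of 21 AAGATGGC, beside 4 of 48 and 7 of 48 of the others, and CCAAT was in 5 of 21 and 22 of 48.

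Coverage of the members by peaks was highest just downstream of the TSS. At 300 bp downstream of the reference TSS, where coverage was highest in SD, YD and RD and level with that at 200 bp in CR and HF, a peak covered 88.0% ± 5.18 of the 78 members in SD mice and 92.3% ± 7.80 in CR mice, 98.7% ± 1.28 in HF mice, 53.8% ± 13.4 under YD and 67.1% ± 10.4 under RD (SD, n = 3 mice). In the order SD, CR, HF, YD and RD, a peak covered 52.1%, 64.5%, 74.4%, 24.4% and 31.2% at 1000 bp downstream and 24.8%, 27.8%, 32.1%, 13.7% and 16.2% at that distance upstream. Among members marked in all 15 libraries whose TSS lay inside the peak, peaks reached a median of 1200 bp upstream where there was a partner and 691 bp where there was none, and 1184 and 1217.5 bp downstream.

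**Figure D5:**
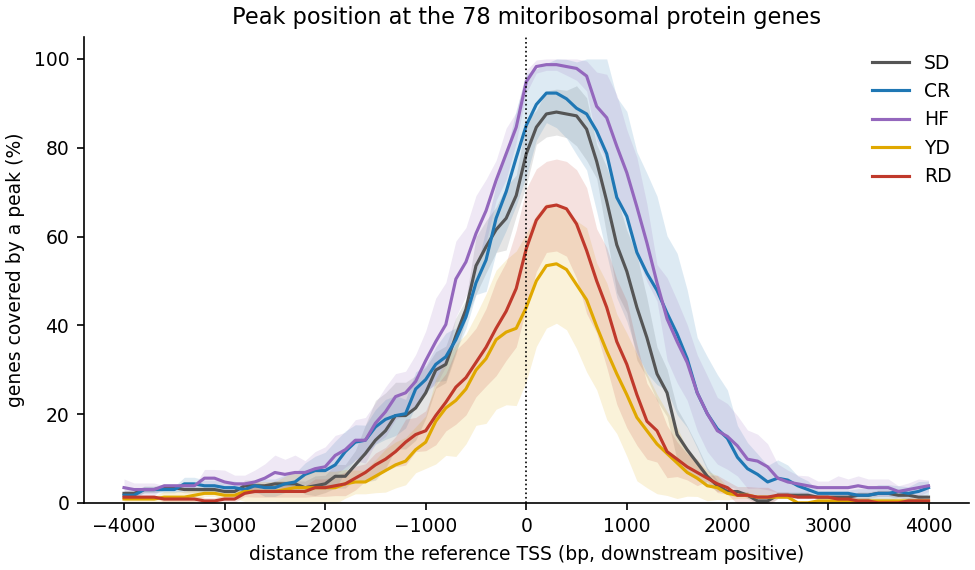
Percent of the 78 mitochondrial ribosomal protein genes covered by a peak (vertical axis) at each distance from the reference TSS in bp (horizontal axis, downstream positive). Lines are the mean of 3 mice per diet and bands the SD, drawn within 0 and 100%; at 300 bp downstream the mean is 98.7% in HF and 53.8% in YD.

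Width and rank were compared over the 23 members with a peak in every library, so that presence did not change the set. Their median width was 2600, 2000 and 1800 bp in SD, 2200, 2600 and 3200 bp in CR, 3400, 2400 and 3000 bp in HF, 2400, 1600 and 1600 bp in YD and 1800, 2400 and 1600 bp in RD, and every pair of diets overlapped. The mean of 1867 ± 462 bp in YD and 2133 ± 416 bp in SD stood beside 1800 ± 721 and 2533 ± 231 bp for the 2059 protein-coding genes marked in every library. The median score percentile of the members was 92.2, 85.5 and 80.7 in SD and 72.3, 69.4 and 81.5 in YD, which overlapped, and 87.5, 92.4 and 81.5 in RD. For the 2059 genes the mean was 78.4 ± 1.65 in YD and 89.1 ± 4.10 in SD, and the difference of the members between YD and SD was -11.7 points in the whole lists and 1.87 points when ranked among those genes.

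Per gene, widths were tested by limma on log2 width centred on the median of each library, over all 2059 genes with Benjamini-Hochberg adjustment. No member was called in any of the 5 pairs, beside 1 of 2059 genes (0.0486%) wider in RD than in SD and 0% in the other contrasts. At an unadjusted p under 0.05 from limma, 3 members were wider and 0 narrower in YD than in SD, beside 103 and 69 genes. Relative to their library 18 of 23 members were wider in YD than in SD, but 5 of 23 in raw width, and 11 of 23 with centring when SD 2 or YD 3 was left out. With the score percentile in place of width, and without centring, limma called 1 member, Mrpl55. It was lower in YD than in SD, beside 3.50% of genes lower and 0.0971% higher, and higher in RD than in YD, beside 1.17%. Over the 2059 genes the mean of the library medians was 78.4 in YD, 89.1 in SD and 87.1 in RD, a shift that these differences include. Mrpl55, a large subunit protein found in animals but not in bacteria, stood at percentiles of 92.4, 90.3 and 66.2 in SD, 30.6, 49.7 and 29.8 in YD and 84.2, 65.4 and 83.8 in RD. No YD value reached the lowest of SD, and the difference was -46.3 ± 8.48 points (limma, SE, adjusted p = 0.0223). RD exceeded YD by 41.1 ± 8.48 points (limma, adjusted p = 0.0499), while its width did not pass in either contrast (adjusted p = 0.655 and 0.810 by limma).

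The widest peaks of this set were at Mrps18b, 3867 ± 1178 bp (SD over 15 libraries), then at Mrps34, Mrpl50, Mrpl47 and Mrpl49, with 2880 ± 1675 bp. All but Mrpl47 have a head-to-head partner, as do 15 of the 23 members of this set, so that their widths can be those of a peak over both starts. Mrps18b (chr17:35910379-35916389, minus strand), 1 of several mammalian homologs of a bacterial small subunit protein, lies 45 bp from Ppp1r10 and had the highest mean percentile, 98.2 ± 1.82. The narrowest were at Mrpl17, 1600 ± 600 bp, Mrpl9, Mrps5, Mrpl32 and Mrpl55, with 1853 ± 678 bp. Of these, Mrps5 and Mrpl32 have a head-to-head partner too. The diets differed most in mean percentile at Mrpl55, by 50.5 points, and next at Mrpl41, Mrpl53, Mrpl14 and Mrpl51, by 36.4 to 37.3 points. Single libraries carried some of these ranges. Mrpl14 stood at 86.6 and 74.6 in YD 1 and YD 2 and at 18.2 in YD 3, and Mrpl53 at 71.1 and 84.4 in RD 1 and RD 2 and at 8.19 in RD 3. Mrpl41 stood at 41.8, 57.3 and 61.4 in YD, under its 81.4 to 92.9 in SD.

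Other genes of mitochondrial translation had their lowest mean counts in YD. Of 24 genes for mitoribosome assembly and rRNA modification, 22, 23 and 19 had a peak in SD, 24 in each HF mouse, 12, 14 and 6 in YD and 18, 17 and 14 in RD. Of 20 mitochondrial tRNA synthetase genes, 14 to 17 had a peak in SD, 17 to 20 in HF, 7 to 11 in YD and 10 to 16 in RD, and of 13 translation factor genes 8 to 12, 12 to 13, 5 to 8 and 9 to 10. Of 9 genes for transcription and copying of the mitochondrial genome, 7 to 9 had a peak in SD, 7 to 9 in HF, 4 to 5 in YD and 4 to 6 in RD. The RD counts overlapped those of other diets. CR 1 held 15 assembly, 10 synthetase, 9 translation factor and 6 transcription genes, within the range of RD for each, and SD 3 held 14 synthetase and 8 translation factor genes. The 5 mitoribosome genes with other symbols, Dap3, Ptcd3, Chchd1, Aurkaip1 and Gadd45gip1, had 3, 5 and 2 peaks in YD and 4 to 5 in every other library. None of these genes passed Fisher's exact test over all genes, where 0% of genes did and even the most extreme split did not. Of the 71, 18 had an unadjusted exact p below 0.05, all with fewer corn libraries. Among genes with a peak in at least 8 libraries it was 13 of 62 (20.97%), near the 22.9% of protein-coding genes. Mrm1, a methyltransferase of the large mitochondrial rRNA, had a peak in 0 of 6 corn libraries and 9 of 9 others (adjusted p = 0.0869, Fisher's exact test, and 0.0439 over genes with a peak in 1 to 14 libraries), and Guf1, a translation factor, in 0 of 6 and 8 of 9.

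Library names take a PATChIP form in 5 libraries and a ChIP form in 10. Within the ChIP form, members with a peak numbered 68 to 75 in SD, 76 in CR, 78 in HF, 33 to 52 in YD and 51 to 62 in RD. Within the PATChIP form they numbered 67 to 76 in CR, 76 to 77 in HF and 55 in RD. The corn libraries stayed below the others in each form, but the PATChIP form holds no SD or YD library and 1 corn library, RD 1. The share of protein-coding genes marked was 17.5% to 34.7% in the corn libraries and 32.7% to 54.6% in the others of the ChIP form. In the PATChIP form it was 31.2% in RD 1 and 35.5% to 51.5% in the others. Endothelial and stellate cell markers were most often marked in HF, where the most members had a peak, and had none in YD, where the fewest did, while Kupffer cell markers had none outside HF and cholangiocyte markers were most often marked in CR, and the part that cell composition or the length of the lists had in these counts was not tested beyond the equal number of peaks given above.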

How the data were processed

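Chromatin from liver sections was immunoprecipitated for H3K4me3 and sequenced as 50 bp single reads. Per the labels and the study's methods, reads were aligned to mm10 with BWA and SAMtools (MAPQ of at least 1), and SICER called peaks per library (window 200 bp, gap 400 bp, fragment 200 bp, FDR 0.05). The submitters' processing notes give no versions of these tools. The deposited lists give each peak's position and the score the authors' caller assigned, and no counts, so depth was recovered from the steps between low scores with an effective genome fraction of 0.74. Scores depend on depth, so they were ranked within each list. The precision of a share is limited by 3 mice per diet.

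A gene had a peak when 1 lay within 1000 bp of any GENCODE M21 TSS, and the highest-scoring such peak gave its width and percentile. limma 3.58.1 (R 4.3.3) tested log2 width and percentile per gene, and Fisher's exact test (SciPy 1.17.1, Python 3.11.15) tested presence, each with Benjamini-Hochberg adjustment over all genes tested at a threshold of 0.05. The steps were tested on simulated data. Exact permutation tests of the member summaries were computed, but their p-values are not given, because the gene family, defined by symbol, and the comparison lists were chosen for study with earlier results of these data known, and only p-values adjusted over all genes, with the unadjusted counts behind them, are given; 3 mice against 3 cannot go below p = 0.1 in an exact test.

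Genes were named by a rule: members with a peak in 7 or fewer libraries, gained or lost in 3 of 3 mice against none, the 5 widest, 5 narrowest and 5 with the largest difference between diet means of the percentile among those marked in all 15 libraries, and those called by limma. Mrps36, the partners and the genes of other lists were named after their values were seen. The promoters, among members in the promoter table, were the 2 with the highest mean percentile among those marked in all libraries and the 2 with the fewest libraries. The choice passed to the next in rank where exons left under 50 bases. Mrpl54, with the fewest libraries of all members, is not in that table. The joint comparison of the corn diets, the genes retained from SD, Fisher's exact test with its counts among genes in at least 8 libraries and the split by partner were chosen after seeing the data. Alternatives changed the TSS distance or set, the peaks kept, the mice required, the centring and the libraries.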

Additional observations from a re-analysis of the deposited data

How the results depend on the processing

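Of 1428 recomputed values, 1338 were counted as the same, 84 moved further and 6 reversed. The same meant within the spread between mice or, for counts, within 1.5 times the reported count. For the median width as mean log2 or relative to coding genes, which are other scales, only the direction was compared. In all, 19 had the opposite sign to the reported value, of which 13, all on the median width or percentile of members, were not counted as reversed because the reported difference lay within the spread between mice; the cause was not tested unless stated. With the 7825 highest-scoring peaks of each list, the member count differed by -14.3 for YD and -18.4 for RD against the other diets, -17.3 for YD against SD and, reversed, -3.33 for RD against YD. The member share minus the coding share differed by 9.67 points for HF and -14.8 for RD, minus the cytosolic share by -8.98 and minus the OXPHOS share by -8.90. Retention against the cytosolic, OXPHOS and coding genes differed by -8.04, -7.44 and, reversed, 1.27, the partner gap in SD, CR and HF was 11.3, and 2 members were gained in CR, 11 lost in RD, and 2 gained and 3 lost in RD against YD. With peaks at or above the median score, the count differed by 23.3 for HF against the other diets and 13.7 against SD, the share minus the coding share by 15.6 for HF, -18.0 for YD and -10.7 for RD, and minus the OXPHOS share by -13.0. Retention then differed by -9.90, -6.54 and, reversed, 1.34, the partner gap was 11.54, and 3 members were gained in HF, 20 lost in YD, 11 in RD and 2 in RD against YD. With the TSS inside the peak, 9 were lost in RD and 2 in RD against YD. The shares of protein-coding genes gained or lost were not counted with an equal number of peaks, with peaks at or above the median score or with the TSS inside the peak. The gained and lost member counts at those settings therefore cannot be set against a background. Requiring 3 of 3 mice gave 0 gained in HF, and 2 gained and 0 lost in RD against YD.

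Libraries named in the ChIP form number 1 in CR and 1 in HF, and these single libraries exceeded the SD mean of the median width by 1067 bp in CR and 1267 bp in HF, and of the percentile by 10.6 points in CR. Ranked among coding genes marked in every library, the percentile differed from SD by 1.87 points in YD, reversed, and 9.49 in RD. With 0 for members without a peak it differed by -43.7 in YD, -16.7 in RD and 27.0 in RD against YD. The score percentile in place of width, without centring, called 1 member lower in YD than in SD and 1 higher in RD than in YD.

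With each library left out, the count differed by -27.3 to -17.8 for YD against the other diets, -29.3 to -19.8 against SD and 4.50 to 14 for RD against YD. The share minus the coding share ranged from -15.1 to -6.91 for YD, and retention minus coding genes from -2.93 to 4.88. Members gained were 1 to 2 in CR and 0 to 4 in HF, lost 10 to 19 in YD and 4 to 11 in RD, and gained 2 to 9 and lost 0 to 3 in RD against YD. The shares of protein-coding genes gained or lost were not counted with a library left out.

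Replicate numbers did not pair the mice. Deviations from the diet means correlated at -0.0663 to 0.0794 for same-numbered mice (30 pairs) and -0.101 to 0.1001 for the others (60 pairs). With the replicate number as a block, limma called 0 members, as without it. Every diet holds the same 3 numbers, so the block leaves a difference of diet means, such as -26.0 for YD against SD, as it is by construction. With 3 mice per diet, presence or absence of a peak near the calling threshold depends on depth and enrichment, which these lists do not separate.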
